A study of Homo sapiens with 30 samples.

Results

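The comparison of BEAS-2B cells at 55 min after exposure to birch pollen with mock-exposed cells of the same time covers 6 of the 30 arrays of the series. Members were taken by their labels: 3 arrays carry the time 55 min and the condition pollen, and 3 carry the same time and the condition air, called mock here. BEAS-2B is an immortalized line of human bronchial epithelium, grown on porous inserts with its upper face open to air. The pollen group received 10 mg of whole birch pollen blown into a sedimentation chamber by pressured air. The mock group went through the same handling without pollen reaching the cells, so both groups had been moved into the chamber and returned to an incubator. The model is a single immortalized line. The question of the comparison is which transcripts differ within the first hour of contact with whole pollen.

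Immediate early genes are transcribed from factors already present in the cell, without new protein synthesis, and encode transcription factors such as FOS and EGR1. Serum response factor at CArG boxes and NF-kB at kappaB motifs are well known routes to such genes, and YAP with TEAD factors drives CCN1 and CCN2 in cells under mechanical or growth factor stimulation. In airway epithelium the NF-kB branch is best known for neutrophil-attracting chemokines, for IL6, and for the inhibitors NFKBIA and TNFAIP3 that end the signal.

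Levels below are log2 of the background-corrected probe intensity minus the 75th percentile of its array, taken over probes that both array designs hold. A level of 0 is thus the brightness that 75 percent of shared probes do not exceed, and levels of different probes are not set against each other. A difference is the pollen mean minus the mock mean on this log2 scale, with 3 arrays per group. Calls needed a limma p under 0.05 after Benjamini-Hochberg adjustment, and the groups had to differ 1.1-fold or more. The labels number the replicates without saying that they are separate cultures. The study states that its exposures were repeated independently on 3 or more days, but not which array came from which day. The p-values thus measure the spread between arrays, and the main fit did not pair arrays by number. Standard errors and p-values use the spread within groups pooled over all 10 groups of the series, not that of 55 min alone. For a gene with a wider spread at 55 min, they understate that spread. In a limma fit to only the 6 arrays of 55 min, the smallest adjusted p was 0.983. The 3 arrays per group limit the precision.

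On the 6 arrays 51.7 to 59.3 percent of probes were well above background and 0 were saturated. Pollen replicate 1 stood apart: it was hybridised on another array design than the other 29 arrays and on a slide of its own. Its correlation with the other arrays of 55 min lay between 0.974 and 0.979, against 0.992 to 0.997 among those 5. Of 19563 probes, 282 lay more than 1 log2 unit below the range of the other 29 arrays on pollen replicate 1, and at most 1 probe lay that far above or below on any other array of 55 min. Differences of single genes and medians of lists are therefore given with and without it. All 18 epithelial markers, among them KRT5, EPCAM and CDH1, were well above background on every array. Of 14 mesenchymal markers 12 were too, whereas COL3A1 and LUM were above background on no array. Of the blood cell markers, CD14 and PTPRC were above background on all arrays and HBB on none.

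The promoter stretches of 9 genes that the results turn on are shown first, because the groups of genes below differ in the motifs upstream of their starts. They come from RefSeq on GRCh38.p14, end at the base before the transcription start, and read 5′ to 3′ on the strand of the gene. Capitals mark motif matches on either strand. In the CCN2 stretch they mark CATTCC, the core bound by TEAD factors, read here as its reverse complement. A kappaB motif 86 to 95 bases before the CCN2 start overlaps the last run of capitals and is not marked.

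CCN2, chr6:131951373-131951552, minus strand: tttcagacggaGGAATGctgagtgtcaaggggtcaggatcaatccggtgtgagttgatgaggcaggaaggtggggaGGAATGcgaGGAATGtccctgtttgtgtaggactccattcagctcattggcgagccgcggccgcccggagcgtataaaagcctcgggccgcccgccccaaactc

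In the EGR1 and EGR2 stretches capitals mark CArG boxes, the sites of serum response factor. For EGR2 the third of 3 annotated starts is shown, the only one with a CArG box, and another of its starts has CATTCC upstream.

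EGR1, chr5:138465359-138465478, plus strand: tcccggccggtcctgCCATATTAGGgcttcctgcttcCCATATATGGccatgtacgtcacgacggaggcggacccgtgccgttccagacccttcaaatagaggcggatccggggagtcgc

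EGR2, chr10:62816367-62816486, minus strand: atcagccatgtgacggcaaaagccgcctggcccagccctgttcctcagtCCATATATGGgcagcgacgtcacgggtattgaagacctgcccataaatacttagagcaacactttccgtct

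In the chemokine, cytokine and inhibitor stretches capitals mark kappaB motifs. In CXCL1, CXCL2 and CXCL3 the motif matched on both strands at overlapping positions, so the 2 matches share 1 run of capitals.

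CXCL1, chr4:73869293-73869392, plus strand: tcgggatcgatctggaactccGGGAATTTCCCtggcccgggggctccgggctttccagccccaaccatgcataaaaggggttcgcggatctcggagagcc

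CXCL2, chr4:74099196-74099295, minus strand: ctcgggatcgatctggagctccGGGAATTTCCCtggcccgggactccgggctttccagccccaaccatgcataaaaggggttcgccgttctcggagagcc

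CXCL3, chr4:74038690-74038789, minus strand: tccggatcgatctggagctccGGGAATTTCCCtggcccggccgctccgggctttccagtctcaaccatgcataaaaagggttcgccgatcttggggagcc

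IL6, chr7:22727100-22727199, plus strand: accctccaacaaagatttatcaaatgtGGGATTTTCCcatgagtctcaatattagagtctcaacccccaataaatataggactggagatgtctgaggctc

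NFKBIA, chr14:35404750-35404849, minus strand: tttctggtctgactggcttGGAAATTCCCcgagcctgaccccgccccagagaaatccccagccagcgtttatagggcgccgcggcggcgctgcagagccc

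TNFAIP3, chr6:137867159-137867258, plus strand: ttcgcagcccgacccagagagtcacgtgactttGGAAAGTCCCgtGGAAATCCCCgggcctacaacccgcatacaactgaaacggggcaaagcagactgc

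A start in the table was found for 43 of the 54 genes whose differences are described here. Over the 250 bases before all 35116 starts, a CArG box was found at 1.16 percent, a kappaB motif at 5.21 percent and CATTCC at 11.9 percent. The kappaB motif was found at 17 of 35 starts of the list of NF-kB subunits and inhibitors and at 9 of 28 starts of the list of cytokines and chemokines. CATTCC was found at 11 of 22 starts of the YAP and TEAD targets. A CArG box was found at 3 of 36 starts of the AP-1 and immediate early transcription factors and at 13 of 56 starts of SRF and actin cytoskeleton genes. The AP-1 motif TGANTCA and the CRE TGACGTCA were found at 6.57 and 1.65 percent of all starts, and at 0 and 2 of the 36 starts of the immediate early list. These matches describe the letters only.

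CCN2, a secreted matricellular protein also known as CTGF, was the only gene that passed the test, and it rose. Its level was 1.82, 2.06 and 2.12 on mock replicates 1, 2 and 3 and 2.96, 2.79 and 2.68 on pollen replicates 1, 2 and 3. Every pollen array lay above every mock array, and the spread was small in both groups (SD 0.16 in mock and 0.14 in pollen, n = 3 each). The difference was 0.81 with a standard error of 0.12, a fold of 1.75, at an adjusted p of 0.0281 in limma. CCN2 was thus 1 probe called of 32099, or 0.00312 percent, and 1 gene of 24511, or 0.00408 percent. Its probe lies on chromosome 6 at 132270130 to 132270189 of hg19. Without pollen replicate 1 the CCN2 difference was 0.73 at an adjusted p of 0.288 in limma, and no probe was called. The CCN2 call was kept without mock replicate 3 and lost when any one of the other 5 arrays was left out, with differences of 0.72 to 0.87 throughout. The call was also lost with a slide block (adjusted p = 0.0657 in limma), with a replicate block (adjusted p = 0.0768), with only the 6 arrays, with own-probe scaling, with the authors' log2 table and, at 0.0501, without a filter on dim probes.

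At an unadjusted p under 0.05, 487 probes were higher in pollen (1.52 percent) and 1143 were lower (3.56 percent). Without pollen replicate 1 these became 435 higher (1.36 percent) and 273 lower (0.85 percent). More probes were lower than higher in the full comparison. The order was turned without that array and without mock replicate 3 (666 higher and 607 lower). It was also turned with array weights (3318 higher and 1397 lower), within slide 2 (330 higher and 126 lower) and without a filter on dim probes (6100 higher and 1369 lower). The excess of lower probes was sharpened to 117 higher and 6285 lower when each array was scaled over its own probes, which moved the median difference of all probes to -0.41. Counted by gene, 356 (1.45 percent) were higher and 925 (3.77 percent) lower at that p. Of probes on both designs, 1132 (4.73 percent) had all 3 pollen arrays above all 3 mock arrays and 942 (3.94 percent) had them all below. This split was 2 above and 2106 below with scaling over own probes, and 26 above and 2238 below with the authors' log2 table. Of genes measured on both designs, 866 (4.74 percent) were separated upwards in this way and 707 (3.87 percent) downwards.

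CCN1, a matricellular relative of CCN2, had a level of 5.21, 5.61 and 6.202 in mock and 6.47, 6.50 and 6.83 in pollen. The groups did not overlap, and mock replicate 3 lay nearest to the pollen arrays. The difference was 0.93 with a standard error of 0.20 at an adjusted p of 0.492 in limma, and 0.99 without pollen replicate 1. F3, tissue factor, which starts the extrinsic clotting cascade, had a level of 0.57, 0.94 and 0.88 in mock and 1.36, 1.15 and 1.07 in pollen, again without overlap (difference 0.40, and 0.32 without pollen replicate 1). Of 23 measured YAP and TEAD targets 1 was called, 5 (21.7 percent) had every pollen array above every mock array and 0 had every pollen array below. Of all genes on both designs 4.74 percent had them all above and 3.87 percent all below. The median difference of these targets was 0.11, and 0.07 without pollen replicate 1, against -0.01 over all genes tested.

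Among immediate early transcription factors, EGR2 had the lowest p after CCN2 and PTPRN of the genes described here. EGR2 encodes a zinc finger activator. Its level was -4.63, -3.68 and -2.65 in mock and -1.77, -1.77 and -1.69 in pollen. The pollen arrays lay close together above a wide mock group. The difference was 1.91 with a standard error of 0.35 at an adjusted p of 0.119 in limma, and 1.92 without pollen replicate 1. EGR1, its close relative, had a level of 4.10, 4.44 and 5.46 in mock and 5.60, 5.61 and 5.87 in pollen. The groups did not overlap, but the gap between mock replicate 3 and the lowest pollen array was smaller than the spread within mock (difference 1.03, and 1.07 without pollen replicate 1).

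FOS and FOSB, which pair with JUN proteins to form AP-1, were far less even between mock arrays than EGR1 and EGR2. The FOS level was -1.83, -1.06 and 2.33 in mock and 0.74, 1.31 and 2.69 in pollen. The FOSB level was -3.03, -3.79 and 0.42 in mock and 0.28, -0.55 and 0.54 in pollen. For both genes mock replicate 3 lay within the pollen range, well above mock replicates 1 and 2. Pollen replicate 3 was likewise the highest pollen array, and pollen lay above mock at every replicate number. The difference was 1.77 for FOS with a standard error of 0.64, and 2.22 for FOSB with a standard error of 0.69, both at an adjusted p of 0.92 in limma. These errors use the pooled spread, whereas the SD at 55 min was 2.21 in mock and 1.00 in pollen for FOS. For FOSB it was 2.25 in mock and 0.57 in pollen. The differences were 2.18 and 2.13 without pollen replicate 1.

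**Figure D1:**
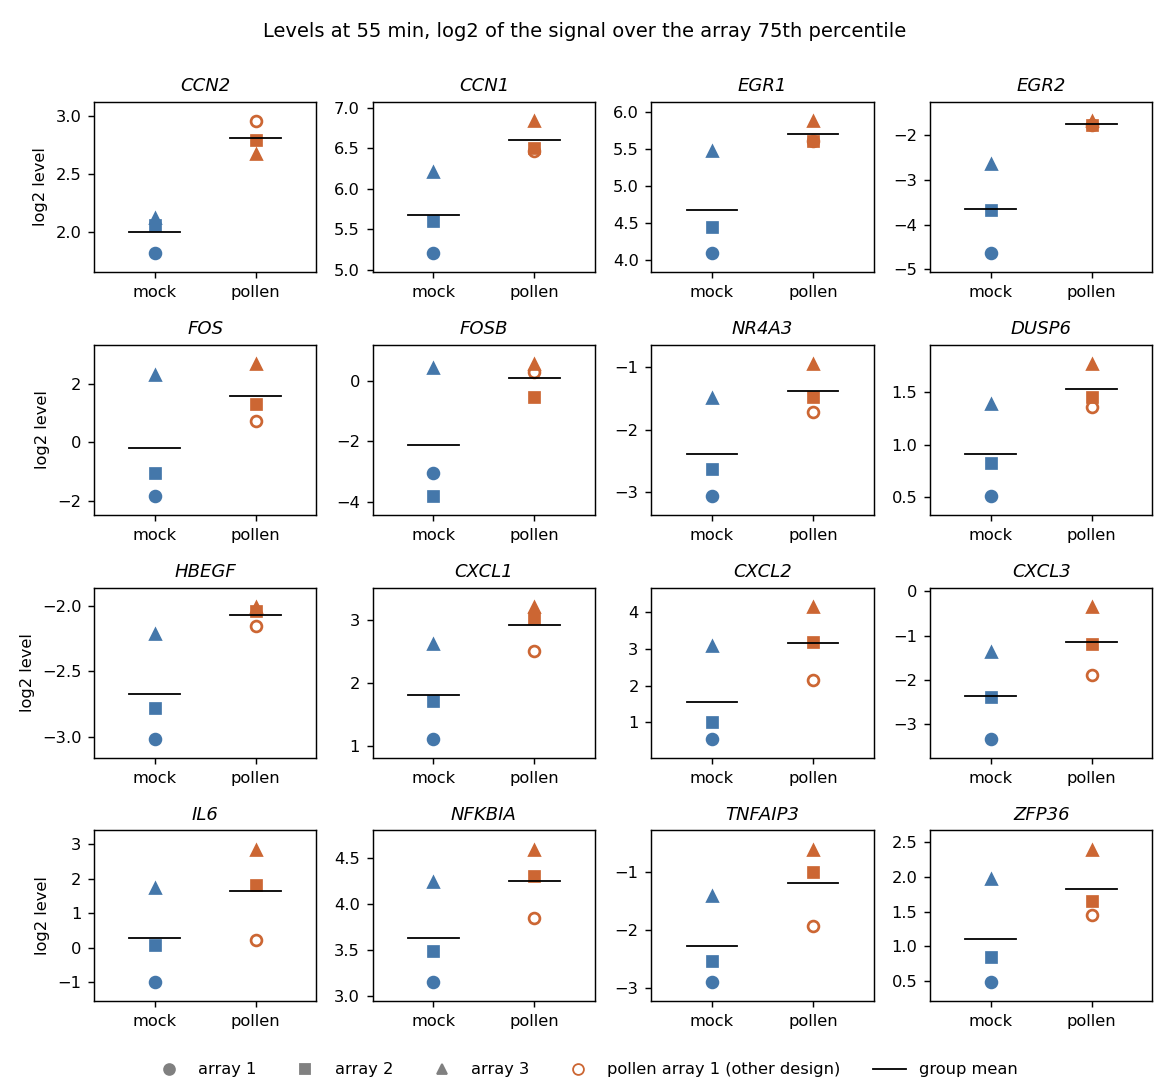
Level of 16 genes on each array of 55 min, as log2 intensity relative to the 75th percentile of the array, with 1 point per array, a marker shape per replicate number, an open circle for pollen replicate 1 and the group mean as a line. CCN2 and EGR2 show no overlap between the groups, whereas mock replicate 3 reaches the pollen range for FOS, FOSB and CXCL2.

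The same lift of mock replicate 3 was seen in the orphan nuclear receptor NR4A3, with a level of -3.05, -2.62 and -1.497 in mock and -1.72, -1.48 and -0.95 in pollen (difference 1.01, and 1.18 without pollen replicate 1). IER2, an early response gene of the nucleus, had a level of 4.68, 4.97 and 5.92 in mock and 5.73, 5.87 and 6.18 in pollen (difference 0.74, and 0.83 without pollen replicate 1). In both genes one mock array overlapped the pollen group. IER3, an early gene that modulates cell survival, was separated, with mock at 2.62, 2.86 and 3.60 and pollen at 3.74, 3.68 and 4.28 (difference 0.88, and 0.96 without pollen replicate 1). The stress factor ATF3, the growth regulator MYC and the clock-linked repressor BHLHE40 had differences of 0.53, 0.47 and 0.43, each with overlapping groups, and of 0.69, 0.64 and 0.35 without pollen replicate 1. Of 34 measured AP-1 and immediate early transcription factors, 31 had a difference above 0, 10 were higher at an unadjusted p under 0.05 and 0 were called. In this list 5 (14.7 percent) had every pollen array above every mock array, where 4.74 percent of all genes did, and 1, IER5L, had every pollen array below. Of all genes on both designs 47 percent had a difference above 0, and 1.45 percent of all genes were higher at an unadjusted p under 0.05. The median difference was 0.32, and 0.47 without pollen replicate 1.

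Of 19 measured MAP kinase feedback inhibitors 0 were called, and 14 had a difference above 0, against 47 percent of all genes on both designs. DUSP6, a cytoplasmic phosphatase of ERK, had a level of 0.52, 0.83 and 1.38 in mock and 1.36, 1.45 and 1.76 in pollen. Only mock replicate 3 overlapped the pollen range. The difference was 0.62 with a standard error of 0.16 at an adjusted p of 0.92 in limma, and 0.70 without pollen replicate 1. DUSP5, a nuclear ERK phosphatase, had a level of -1.39, -0.88 and -0.10 in mock and -0.42, 0.06 and 0.41 in pollen (difference 0.81, and 1.03 without pollen replicate 1). DUSP1, which acts on p38 and JNK as well, had a level of 1.65, 1.55 and 3.22 in mock and 2.79, 2.66 and 3.72 in pollen (difference 0.92, and 1.05 without pollen replicate 1). Mock replicate 3 again lay among the pollen arrays. ERRFI1, an inhibitor of the EGF receptor, had no overlap but a difference of only 0.28, and 0.301 without pollen replicate 1. In this list 4 were higher at an unadjusted p under 0.05, against 1.45 percent of all genes. Without overlap and higher in pollen were 2 (10.5 percent), against 4.74 percent of all genes. Its median difference was 0.11, and 0.20 without pollen replicate 1.

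The EGF receptor ligand HBEGF had a level of -3.01, -2.78 and -2.22 in mock and -2.15, -2.04 and -2.01 in pollen, without overlap (difference 0.60, and 0.64 without pollen replicate 1). EREG, another ligand of the family, had a difference of 0.51, and 0.62 without pollen replicate 1. TGFA showed what 1 array can do to a mean: its level was 0.19, 0.06 and 0.28 in mock and -2.05, -0.06 and 0.25 in pollen. Only pollen replicate 1 was low. The TGFA difference was -0.79, and -0.08 without that array.

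The NF-kB regulators NFKBIA, TNFAIP3 and NFKBIZ had larger differences when pollen replicate 1 was left out. NFKBIA, which holds NF-kB in the cytoplasm, had a level of 3.16, 3.49 and 4.24 in mock and 3.85, 4.31 and 4.58 in pollen (difference 0.62, and 0.81 without pollen replicate 1). TNFAIP3, the ubiquitin-editing enzyme A20, had a level of -2.89, -2.54 and -1.42 in mock and -1.94, -1.01 and -0.63 in pollen (difference 1.09, and 1.46 without pollen replicate 1). In both genes pollen replicate 1 was the lowest pollen array and lay below mock replicate 3. NFKBIZ, a nuclear IkB protein needed for IL6 induction, had a difference of 1.15, and 1.54 without pollen replicate 1. BIRC3, an inhibitor of apoptosis and NF-kB target, had a level of -0.85, -0.95 and -0.51 in mock and -0.18, -0.46 and -0.32 in pollen, without overlap (difference 0.45, and 0.38 without pollen replicate 1). Of 20 measured subunits and inhibitors 3 (15 percent) were without overlap, against 4.74 percent of all genes, and 15 had a difference above 0, against 47 percent. The median was 0.11, and 0.16 without pollen replicate 1.

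The neutrophil chemokines whose shared kappaB run is printed above had similar patterns. CXCL1 had a level of 1.12, 1.71 and 2.63 in mock and 2.52, 3.03 and 3.21 in pollen (difference 1.099). CXCL2 had a level of 0.55, 1.01 and 3.07 in mock and 2.15, 3.18 and 4.14 in pollen (difference 1.61). CXCL3 had a level of -3.33, -2.39 and -1.37 in mock and -1.90, -1.19 and -0.36 in pollen (difference 1.22). The order of arrays was the same in each of these genes: mock replicate 3 lay above pollen replicate 1 and below the other pollen arrays. Without pollen replicate 1 the differences were 1.299 for CXCL1, 2.11 for CXCL2 and 1.59 for CXCL3, at adjusted p of 1.00, 0.731 and 0.979 in limma.

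CXCL8 is the best known neutrophil chemokine. Its level was -4.19, -3.36 and -2.20 in mock and -4.91, -2.36 and -0.96 in pollen. Pollen replicate 1 was the lowest of all 6 arrays. The CXCL8 difference was 0.51 with a standard error of 0.69, and 1.59 without that array.

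IL6, which drives the acute phase response, had a level of -0.97, 0.08 and 1.73 in mock and 0.24, 1.84 and 2.83 in pollen (difference 1.36, and 2.05 without pollen replicate 1). PTX3, a secreted pattern recognition protein, had a level of 0.03, 0.77 and 1.63 in mock and 0.63, 1.65 and 2.26 in pollen (difference 0.70, and 1.15 without pollen replicate 1). Both genes spanned more than 1 log2 unit within each group. CCL20, which attracts dendritic cells and Th17 cells, had a difference of 0.93, and CSF3, the granulocyte growth factor, of 0.94. They were 1.53 and 1.36 without pollen replicate 1. The interleukins IL1A and IL1B had differences of 0.72 and 0.78, and the IL6 family cytokine LIF of 0.56. Without that array they were 1.05, 1.04 and 0.66. Of 26 measured cytokines and chemokines 7 were higher at an unadjusted p under 0.05, against 1.45 percent of all genes. In this list 0 were called and 0 were without overlap, where 4.74 percent of all genes were separated upwards. Without pollen replicate 1, 14 of the 26 had both other pollen arrays above all mock arrays, where 10.5 percent of all genes did. The median difference of the list was 0.28, and 0.52 without that array.

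Regulators of mRNA decay shorten the life of AU-rich and cytokine transcripts. ZFP36, which binds AU-rich elements, had a level of 0.50, 0.85 and 1.98 in mock and 1.45, 1.66 and 2.38 in pollen (difference 0.72, and 0.92 without pollen replicate 1). ZC3H12A, the endonuclease Regnase-1, had a level of -1.57, -1.04 and -0.60 in mock and -1.19, -0.15 and -0.03 in pollen (difference 0.61, and 0.98 without pollen replicate 1). Its relative ZC3H12C was separated, with mock at -0.52, -0.69 and -0.32 and pollen at -0.02, -0.11 and -0.13 (difference 0.42, and 0.39 without pollen replicate 1). Of 17 measured members 16 had a difference above 0, against 47 percent of all genes, and 4 were higher at an unadjusted p under 0.05, against 1.45 percent. In addition 2 (11.8 percent) were without overlap, against 4.74 percent. The median was 0.17, and 0.19 without pollen replicate 1.

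**Figure D2:**
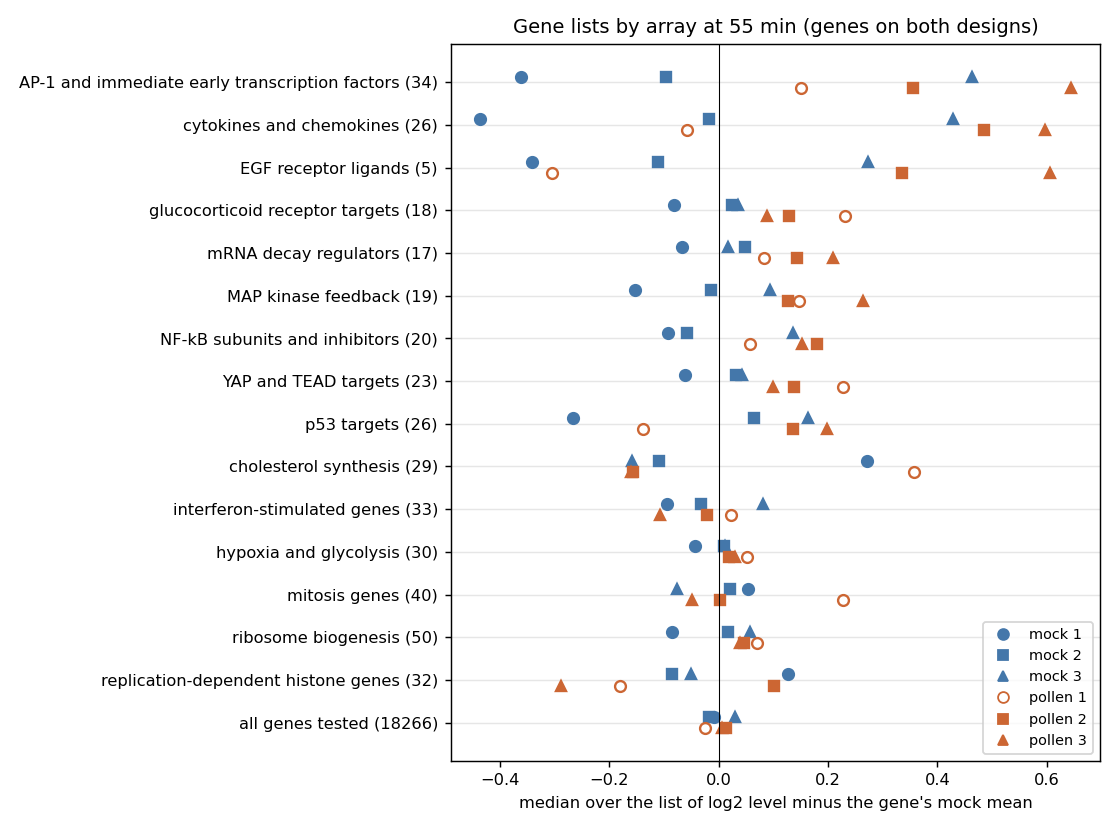
Median over the members of 15 gene lists and of all genes tested, per array of 55 min, of the log2 level minus the mock mean of each gene. Numbers in brackets count members on both designs, and the open circle is pollen replicate 1. For AP-1 and immediate early transcription factors mock replicate 1 is lowest, at -0.36, and mock replicate 3 lies at 0.46, above pollen replicates 1 and 2.

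Other genes without overlap were less familiar in this setting. INHBA, a subunit of activin, had a level of -5.06, -4.58 and -4.68 in mock and -4.23, -3.70 and -4.37 in pollen (difference 0.68, and 0.74 without pollen replicate 1). PTGER4, a prostaglandin E2 receptor, had a level of -0.58, -0.93 and -0.82 in mock and 0.02, -0.40 and -0.41 in pollen (difference 0.52, and 0.37 without pollen replicate 1). For these and for FILIP1L (0.64), ARID3A (0.50) and CFAP44 (0.55), mock replicate 3 was not the highest mock array, unlike for FOS or CXCL2. FILIP1L, ARID3A and CFAP44 had differences of 0.76, 0.41 and 0.51 without pollen replicate 1. DNA replication and G1/S genes had 9 of 38 members (23.7 percent) without overlap and higher in pollen and 2, POLD1 and POLE, without overlap and lower (5.26 percent), against 4.74 and 3.87 percent of all genes, with 0 at an unadjusted p under 0.05 and a median difference of 0.08. That median was 0.01 without pollen replicate 1. Glucocorticoid receptor targets had 4 of 18 (22.2 percent) without overlap and a median of 0.16, and 0.10 without pollen replicate 1. The lists of NRF2 targets, interferon-stimulated genes, heat shock chaperones and unfolded protein response genes had medians of -0.05, -0.03, 0.05 and 0.07, and of -0.06, -0.05, -0.03 and 0.09 without pollen replicate 1.

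Among genes with lower levels in pollen, SFTPC, surfactant protein C, had a level of -4.12, -4.43 and -4.16 in mock and -5.18, -4.85 and -4.80 in pollen. The groups did not overlap, and the difference was -0.70, and -0.59 without pollen replicate 1. PGAM2, the muscle form of phosphoglycerate mutase, had a level of -4.45, -4.98 and -4.92 in mock and -6.03, -5.48 and -5.53 in pollen (difference -0.90, and -0.72 without pollen replicate 1). PTPRN, a receptor-like phosphatase of secretory granules, was above background on all mock arrays and not well above background on any pollen array, and was at least 1.43-fold lower in pollen. Its measured levels were -6.04, -6.28 and -5.88 in mock and -8.76, -7.49 and -7.79 in pollen, where pollen replicate 1 was lowest. The measured means were -6.06 in mock and -8.01 in pollen, at an adjusted p of 0.119 in limma. The histone gene H3C12 had a difference of -0.77, and -0.504 without pollen replicate 1. Replication-dependent histone genes as a list had 5 of 32 members above 0, against 47 percent of all genes on both designs. The median of the list was -0.13, and -0.10 without pollen replicate 1 and -0.02 within slide 2. Relative to the mock mean, its median level was -0.18, 0.10 and -0.29 on pollen replicates 1, 2 and 3. Pollen replicate 2 thus went the other way. On mock replicates 1, 2 and 3 it was 0.13, -0.09 and -0.05. SC5D, an enzyme of cholesterol synthesis, had a difference of -0.28, and -0.35 without pollen replicate 1. Without pollen replicate 1, 8 of 29 cholesterol synthesis genes had both other pollen arrays below all mock arrays, where 8.65 percent of all genes did, and the median of the list went from 0.02 to -0.15. The median level of this list relative to the mock mean was 0.27 on mock replicate 1 and 0.36 on pollen replicate 1, against -0.11 and -0.16 on the other mock arrays and -0.16 on each other pollen array. The shift thus came with leaving out pollen replicate 1 alone, and within slide 2 the median was -0.03. The transporter SLC22A3 and the zinc finger gene GLIS1 had differences of -0.69 and -0.54, and of -1.17 and -0.75 without that array.

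Several large negative differences were carried by pollen replicate 1. BHLHE23 had a level of 0.40, 0.50 and 0.43 in mock and -2.74, 0.32 and 0.11 in pollen. WDR93 had a level of -3.01, -3.17 and -3.00 in mock and -6.22, -3.29 and -3.47 in pollen. In both genes a single pollen array lay more than 2 log2 units below the rest. Their differences of -1.21 and -1.26 became -0.23 and -0.32 without it. ANP32CP went in the same way from -1.41 to -0.45 and FCRL6 from -1.39 to -0.72.

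**Figure D3:**
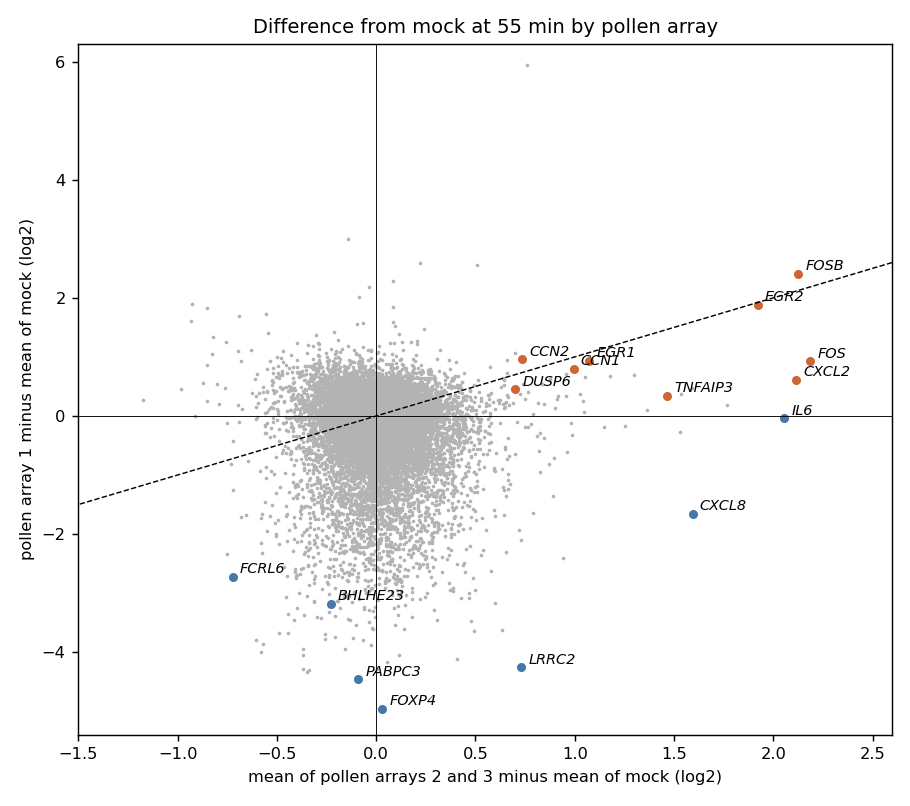
Level on pollen replicate 1 minus the mock mean against the mean of pollen replicates 2 and 3 minus the mock mean, on the log2 scale, with 1 point per probe well above background on all 6 arrays (20679) and equality as the dashed line. EGR2 and CCN2 lie above 0 on both axes, whereas a tail of probes lies far below 0 for pollen replicate 1 alone.

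The spread between replicates was wider in pollen, and the excess came with pollen replicate 1. Over 20679 probes well above background on all 6 arrays, the median SD was 0.121 in mock, 0.187 in pollen and 0.0920 over pollen replicates 2 and 3. Over 2 mock arrays at a time it was 0.0907 to 0.121, and over pollen replicate 1 with replicate 2 or 3 it was 0.185 or 0.203. An SD over 1 was found for 35 probes in mock and 777 in pollen. FOXP4, a forkhead factor of airway development, was low on pollen replicate 1 alone, with a level of 4.87, 5.00 and 5.10 in mock and 0.03, 5.16 and 4.88 in pollen. PABPC3 had a level of 4.05, 3.96 and 4.17 in mock and -0.40, 3.63 and 4.31 in pollen. SFTA1P and LRRC2 were likewise low on pollen replicate 1, at 1.16 and -6.15, against 5.46 and -1.32 on pollen replicate 2.

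Among the genes with the widest mock spread, FOS, FOSB, IL6 and CXCL2 were high on mock replicate 3, as described above. Among the pollen arrays they were highest on pollen replicate 3. Other genes formed another pattern. COL1A2, a chain of type I collagen, had a level of -1.49, -2.90 and -4.99 in mock and -1.22, -3.04 and -5.07 in pollen. IGF2, a fetal growth factor, had a level of 1.02, -0.96 and -2.01 in mock and 1.17, -0.87 and -2.13 in pollen. In both genes mock and pollen arrays of the same number lay close together, no further apart than 0.27 for COL1A2 and 0.16 for IGF2. SLITRK6 and RCAN2 behaved alike, with mock and pollen arrays of the same number no further apart than 0.30 and 0.51. COL1A2 is one of the mesenchymal markers, and fewer cells of a type and less RNA per cell cannot be told apart in bulk RNA. Its part in the other differences was not tested.

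**Figure D4:**
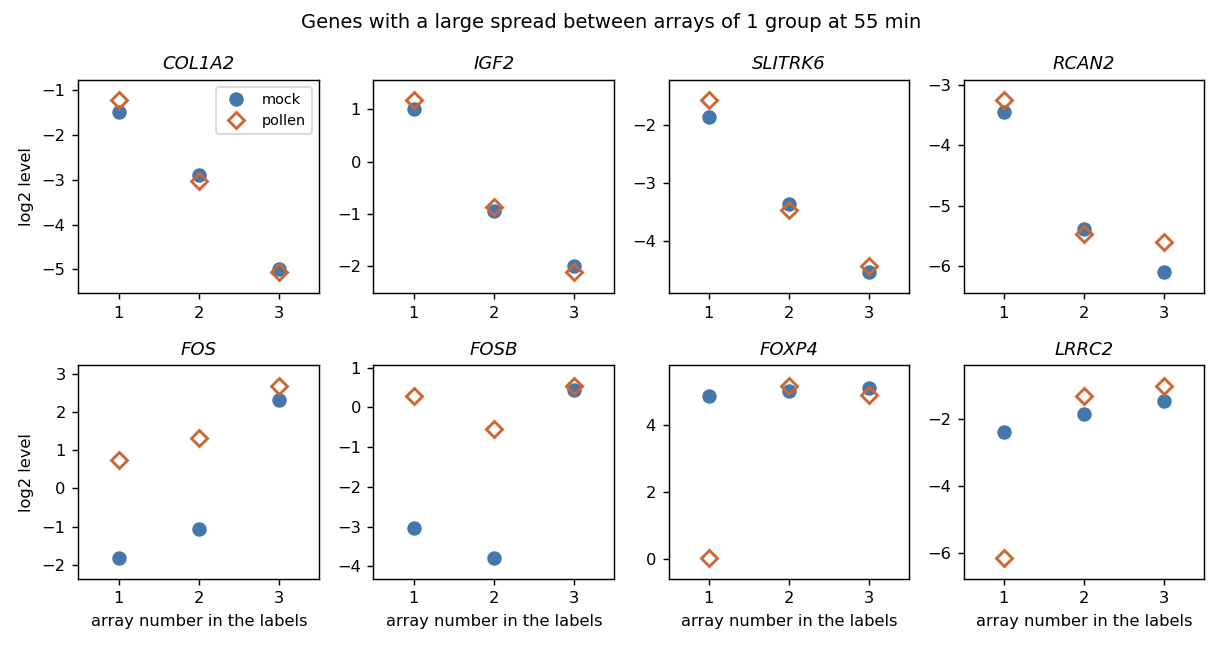
Level of 8 genes by array number in mock and pollen, on the log2 scale. COL1A2, IGF2, SLITRK6 and RCAN2 have mock and pollen points close together at each number, FOS and FOSB are high on mock replicate 3, and FOXP4 and LRRC2 are low on pollen replicate 1.

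Slide and group were partly mixed. Slide 2 held 2 arrays of each group, mock replicate 1 was on slide 1 and pollen replicate 1 on slide 3. Within slide 2 the differences were 0.65 for CCN2, 0.76 for CCN1, 1.43 for EGR2, 1.62 for CXCL2 and 1.43 for IL6, and no probe was called.

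The difference between pollen and mock at 55 min was set against the same difference at 10 min and at 2h25 min. For 0 of 32099 probes did it differ from that at 10 min at an adjusted p under 0.05 in limma, with 1211 at an unadjusted p under 0.05 and a smallest adjusted p of 0.945. For 0 probes did it differ from that at 2h25 min, with 443 at an unadjusted p under 0.05 and a smallest adjusted p of 1.00. For CCN2 the difference at 55 min exceeded that at 10 min by 0.87, and for EGR2 by 1.88. Against 2h25 min the CCN2 difference was smaller by that measure, with a contrast of -0.63, and the EGR2 contrast was 0.94.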

How the data were processed

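RNA of BEAS-2B cells was hybridised to one-colour Agilent arrays. Per the file headers, the deposited scanner files give spot intensity from Feature Extraction 11.0.1.1, background-subtracted and detrended within each array, with probe positions on hg19, and flags for spots, among other columns. The authors' deposited values on a log2 scale, 1 column per array, are quantile normalized without background subtraction, and served as an alternative. In it the column of pollen replicate 1 follows the spot numbers of its own design, so it was matched to probes through that design, and was also used with rows as they stand.

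Processed intensity was averaged per probe, put on the log2 scale and centred on the 75th percentile of each array over probes on both designs. A probe was tested if some group of the 10 had it well above background on each of its 3 arrays. Of the 32099 probes tested, 8174 were absent from the design of pollen replicate 1 and had 2 pollen arrays. limma 3.58.1 (lmFit and eBayes) in R 4.3.3 (data.table package, version 1.17.8) fitted 10 group means to all 30 arrays, leaving 20 residual degrees of freedom. The fit was tested on simulated data with independent noise, of equal spread on every array for a given probe. That simulation held no outlying array and no slide effect, so it cannot speak to those features of these data. A gene is given by its brightest probe on both designs. Genes were named if called, among the 12 largest without overlap or the 10 smallest p in each direction, among the 3 largest of a list, among the 10 widest of a group, or named by the study. A further rule took the 20 largest in each direction without pollen replicate 1, and from the genes these rules gave, 54 were described, so that choice was made after their values were seen, as was the naming of IER5L, POLD1 and POLE. The members and gene lists were chosen with earlier results of these data known. Alternatives covered scaling, background, filters, array weights, blocks, the deposited table and leaving out each array.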

Additional observations from a re-analysis of the deposited data

How the results depend on the processing

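The count of called probes, 1, became 0 with the percentile over each array's own probes and with the authors' log2 table. It was 0 also with that table's rows as they stand, an alternative chosen after seeing the data. With only the 6 arrays of 55 min, with a slide block and within slide 2 it was 0 too. The count became 2 with normexp and quantile normalization, and 231 with array weights. Those weights were 0.118 for pollen replicate 1, 6.32 for mock replicate 2 and 3.34 for pollen replicate 2. Mock replicates 1 and 3 and pollen replicate 3 had weights of 0.752, 0.937 and 0.975. The 231 calls thus leaned most on 1 array of each group. Leaving out each array gave 0 to 14, the 14 without mock replicate 3. The 1630 probes at an unadjusted p under 0.05 became 6402 with own probes, 7186 with the authors' table, 7469 without a filter, 1038 for probes above background on all 6 arrays, 824 with the 6 arrays, 4715 with weights, 1023 with a slide block, 456 within slide 2 and 708 to 3594 on leaving out each array. The difference from 10 min gave 1 probe with normexp and 2 without a filter, and that from 2h25 min 1 without a filter and 0 to 1 on leaving out each array. The 2074 probes without overlap became 7175 within slide 2 and 3659 to 4839 on leaving out each array, where fewer arrays were compared. The median pollen SD of 0.187 became 0.729 with own probes, 0.621 with the authors' table, 0.0920 within slide 2 and 0.0920 to 0.203 on leaving out each array.

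With a replicate block 0 probes were called and 2786 were at an unadjusted p under 0.05. Deviations of same-numbered arrays from their group means correlated at 0.29, -0.05 and 0.40. Mock replicate 1 correlated best with pollen replicate 1 and mock replicate 3 with pollen replicate 3, whereas mock replicate 2 correlated best with pollen replicate 1, at 0.07. The study describes a mock control in each run, but the sources used here do not say that the numbers mark runs, so the numbers were not taken as pairs. Pollen lay above mock within every number for 23 of 34 AP-1 and immediate early transcription factors, 14 of 26 cytokines and chemokines and 14 percent of all genes.

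The own-probe percentile and the authors' table moved the median difference of all probes to -0.41 and -0.36. There F3 became -0.016 and ERRFI1 -0.14 with own probes, and BHLHE40 -0.10, EREG -0.14, BIRC3 -0.013, LIF -0.043 and ZC3H12C -0.043 with the table. On leaving out each array CXCL8 ranged from -0.38, without pollen replicate 3, to 1.59, without pollen replicate 1. Of 54 named genes 46 kept their sign under every alternative run, 19 for each gene and 18 for PTPRN. With array weights 28 of them were called, where 231 of all 32099 probes were. Without mock replicate 3, 11 of them were called, where 14 of all probes were. The 54 genes were chosen largely by their values on these same arrays, so such counts lend the differences no independent support. With 3 arrays per group, dim probes and small differences are the least certain.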
